A study of Nothobranchius furzeri with 20 samples.

Results

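Skin of the oldest fish in the series, 14 weeks, was compared with skin of the youngest, 5 weeks. The 10 libraries were chosen by the age in their labels alone, 5 at each age, out of 20 libraries in all. The other 10 came from fish of 7 and 10 weeks, 5 libraries each, and served to place the ages between. The animals were male turquoise killifish, Nothobranchius furzeri, and all belonged to the GRZ strain, with no treatment named in the labels at any age. The series title asks how skin expression differs between age groups, and 14 against 5 weeks is the widest span it allows.

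Fish skin is a barrier of living epidermis over a collagen-rich dermis that carries scales, pigment cells, nerves and vessels. Mucus from epidermal cells coats its surface, and resident immune cells guard it. The turquoise killifish lives in seasonal pools and matures and ages fast, and GRZ is an inbred, short-lived laboratory strain, which is why the species is used to study ageing. None of the gene IDs in the files could be paired with a gene name, so genes are described by ID or by rank in abundance, and no role is given to any of them. For the same reason the labelled tissue could not be set against marker genes. In RNA from whole skin, fewer cells of a type and less RNA per cell cannot be told apart.

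Depth was similar at both ages, at 24747312 to 35137022 counts per library of 5 weeks and 21581757 to 33838693 counts per library of 14 weeks. After a filter on low counts, 19192 of the 26739 gene IDs were tested. They held at least 99.89% of the counts of every library. The libraries of 14 weeks were not alike. Levels are given as CPM, the counts of a gene per 1000000 counts of its library after TMM scaling between libraries. In a principal component analysis of log2 CPM, with 42.85% of the variance on its leading axis, 14 weeks replicates 3 and 4 lay at 151.2 and 189.0, while the other 3 lay between -68.9 and 45.3. Among the ages between, 7 weeks replicate 3 lay at 85.4 and 10 weeks replicate 4 at 118.2. The 5 weeks libraries lay between -60.6 and 15.3, with replicates 4 and 5 at -5.35 and 15.3 and the other 3 at -55.4 or below. The main results are also given without 14 weeks replicates 3 and 4. For 5 weeks replicates 4 and 5 this covers the counts of differing genes and the share of the 10 most abundant genes. Whether each library is a fish of its own is not stated in the labels. The p-values therefore measure the spread among these libraries only, which may be technical.

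Under edgeR's quasi-likelihood test, 2 genes passed an adjusted p of 0.05, both lower at 14 weeks (0.0104% of the genes tested). None was called higher (0.0%), although 4517 genes had an unadjusted p under 0.05. The smallest adjusted p of a gene with a higher level at 14 weeks was 0.0618. The number of calls and their direction hung on which libraries entered. Without 14 weeks replicate 1, 1498 genes were called, 1238 higher and 260 lower. Without replicate 2 of that age it was 2141, 1593 higher and 548 lower, and without replicate 5 it was 1284, 1103 higher and 181 lower. Without replicate 3 or without replicate 4 it was 0. Leaving out 5 weeks replicate 4 gave 36 higher and 78 lower, leaving out 5 weeks replicate 5 gave 21 and 37, and leaving out 7 weeks replicate 5 gave 1 lower. DESeq2 gave 1703 calls on the higher and 543 on the lower side, 2246 in all, and limma voom gave 0. Most calls thus ran to the higher side in those 3 fits without a 14 weeks library and in DESeq2, against none of the 2 here.

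Nfu_g_1_022937, with the smaller p of the called genes, fell with age. At 5 weeks its level was 4.16, 16.4, 5.52, 2.20 and 0.613 CPM in replicates 1 to 5. At 14 weeks the libraries held 0, 0, 4, 5 and 2 counts of it, which is at most 0.151 CPM. The groups did not overlap, and the 5 weeks libraries spanned a far wider range than those of 14 weeks. The ages between followed in order of their means, with 1.05 to 1.99 CPM at 7 weeks and 0.0825 to 0.543 CPM at 10 weeks. The log2 fold change was -6.19 (SE 0.87; adjusted p = 0.0206, edgeR). Without 14 weeks replicate 3 or replicate 4 the adjusted p was 0.0579 or 0.0575.

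Nfu_g_1_023228 also fell with age. It stood at 4.24, 16.6, 2.69, 1.26 and 0.652 CPM in the 5 weeks replicates, and had 0, 1, 6, 3 and 1 counts at 14 weeks. Replicate 2 was the highest and replicate 5 the lowest of 5 weeks for both genes. Its range was 0.602 to 1.15 CPM at 7 weeks and 0.0276 to 0.296 CPM at 10 weeks, so the 7 weeks libraries overlapped with the lowest of 5 weeks. The log2 fold change was -6.01 (SE 0.91; adjusted p = 0.0262, edgeR). The adjusted p was 0.0579 without 14 weeks replicate 3, 0.127 without 14 weeks replicate 4 and 0.0513 without 7 weeks replicate 5. With counts this low at 14 weeks, the fitted fold of either gene is loosely held.

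A lack of overlap between the ranges is a laxer criterion than the adjusted test, and more genes met it. If libraries of both ages were alike, a gene would meet it at a rate of 0.00794, both directions together. In 275 genes every 14 weeks library lay above every 5 weeks library (1.43% of the genes tested), and in 151 every one lay below (0.787%), 2.22% in both directions. These genes are called higher and lower genes from here on, as a description of the 10 libraries with no test of the number. Most were near the threshold of the test without passing it. Of the 275 higher genes, 268 had an unadjusted p under 0.05 and 232 an adjusted p under 0.1. Of the 151 lower genes, these counts were 140 and 110, against 4517 and 2150 of all 19192. Low p-values are built into the choice of these genes, since the test compared the same libraries, so they are no separate evidence. With DESeq2's size factors 317 genes were higher and 125 lower, with upper-quartile factors 236 and 185, and with library totals alone 417 and 69. Scaling by totals alone also moved the median log2 fold change of all genes from 0.07 to 0.25, so the excess of higher genes is relative to the scaling. Fewer libraries leave more genes without overlap by construction. The total of 426 was 952 and 897 without 5 weeks replicate 4 and 5, and 821, 1205 and 741 without 14 weeks replicate 1, 2 and 5. With 14 weeks replicates 3 and 4 both left out, 732 genes were higher and 712 lower. With 5 weeks replicates 4 and 5 both left out, 1572 were higher and 1666 lower, so the excess of higher genes was not seen there.

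The gap between the groups was usually narrow. Between the lowest library of the higher age and the highest of the lower age, on log2(CPM + 0.5), the median gap was 0.11 in the higher genes and 0.08 in the lower genes. It was under 0.1 in 126 of the 275 and in 86 of the 151. A gap of at least 0.5 was found in 15 higher and 5 lower genes. Differences of the means were larger on the higher side when all libraries were used. On log2(mean CPM + 0.5) the median difference was 1.08 in the higher and -0.70 in the lower genes. Without 14 weeks replicates 3 and 4 it was 0.66 and -0.65, so the sides were then about equal in size. A fitted change of at least 2-fold was found in 187 of 275 higher genes and 53 of 151 lower genes, against 3241 of all 19192. At least 8-fold was found in 58 (21.1%) and 4 (2.65%), against 3.16% of all genes. The numbers for all genes count rises and falls together, so they are not a like measure for either list alone. Choosing genes without overlap in itself favours larger folds than in all genes.

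By their mean over the 10 libraries, the higher genes were less abundant than genes in general and the lower genes about as abundant. The median of that mean was 8.31 CPM in the higher genes, 11.2 CPM in the lower genes and 11.5 CPM in all genes tested. Such means hold the levels by which the genes were chosen. At 5 weeks the medians were 2.76 CPM (higher), 13.9 CPM (lower) and 10.3 CPM (all genes). At 14 weeks they were 11.9, 6.96 and 11.9 CPM, so over all 5 libraries the higher genes then stood level with genes in general. Without 14 weeks replicates 3 and 4 they were 5.61, 7.21 and 10.0 CPM, so the higher genes then stayed below genes in general. Among the 2031 genes with a mean under 1 CPM over the 20 libraries, 2.26% were higher and 0.788% lower. Among the 1019 genes between 100 and 1000 CPM the shares were 0.589% and 0.883%. None of the 127 genes over 1000 CPM was without overlap, but at the 2.22% of all genes tested only a few would be found among 127. Scaled by gene length, with means over the 20 libraries, the medians were 3.05 CPM per kilobase in the higher, 5.51 in the lower and 4.44 in all genes. The lower genes then stood above genes in general, but the set of libraries averaged changed along with the scaling. The higher genes were also longer, at a median of 3050 bases against 2090 in the lower and 2670 in all genes tested. A gene with few counts at 5 weeks can pass the filter on low counts only through later ages and then tends to differ. In 43 of the 275 higher genes each 5 weeks library had under 10 counts, against 408 of all 19192, and 1 of the 43 had no count there. In 5 of the 151 lower genes each 14 weeks library had under 10, against 32 of all 19192.

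**Figure D1:**
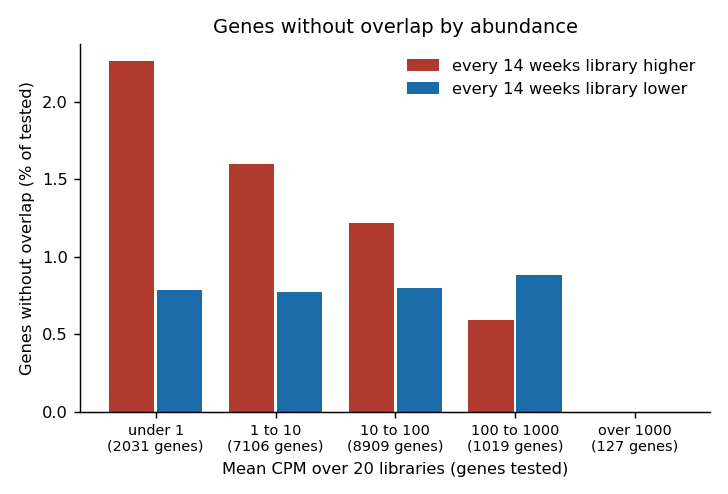
Share of tested genes (percent, vertical axis) whose 14 weeks libraries all lay above (red) or all below (blue) the 5 weeks libraries, in 5 classes of mean CPM over 20 libraries. The red bars shrink from 2.26% of genes under 1 CPM to 0.589% between 100 and 1000 CPM, the blue bars stay between 0.774% and 0.883% in these classes, and neither is present over 1000 CPM.

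Together the higher genes took a small part of the counts. They held 0.261 ± 0.0309% of the counts (SD, n = 5) at 5 weeks, 0.41 ± 0.177% at 7 weeks, 0.546 ± 0.19% at 10 weeks and 0.783 ± 0.338% at 14 weeks. The 7 weeks libraries were split, with 0.259%, 0.215%, 0.602%, 0.576% and 0.398% in replicates 1 to 5, against 0.22% to 0.307% at 5 weeks. The difference in this share between 5 and 14 weeks is fixed by the choice of genes. The 7 and 10 weeks libraries were not compared in that choice, but they entered the low-count filter and the TMM scaling before it. The lists held 278 to 307 higher genes and 128 to 152 lower genes when any 1 of these libraries was dropped. Levels at 7 and 10 weeks are thus not fully independent of how the lists were made. The lower genes held 0.656 ± 0.236%, 0.533 ± 0.0948%, 0.341 ± 0.0366% and 0.337 ± 0.0161% from 5 to 14 weeks (SD, n = 5 each). Within 14 weeks the summed share of library totals was spread for the higher genes and tight for the lower genes. The higher genes held 1.23% and 1.0% of the counts in replicates 3 and 4, against 0.496%, 0.428% and 0.761% in replicates 1, 2 and 5. The lower genes held 0.321% to 0.36% in all 5. In TMM-scaled CPM, the median of the lower genes ran from 6.08 to 8.35 CPM over the 14 weeks libraries, and that of the higher genes from 4.91 to 17.4 CPM. A tight sum does not make each gene tight, as the most abundant lower gene ran from 112 to 737 CPM at 14 weeks.

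Nfu_g_1_002693, a gene of 3096 bases, had the widest gap of all higher genes, at 2.25 log2 units. Its level was 1.41, 3.69, 7.13, 1.52 and 1.76 CPM in the 5 weeks replicates. At 14 weeks it was 41.4, 42.1, 43.7, 35.7 and 71.9 CPM. The 14 weeks libraries thus lay close together, replicates 3 and 4 among them, with replicate 5 above the rest. Levels of 0.552 to 28.0 CPM at 7 weeks and 2.59 to 21.3 CPM at 10 weeks lay below every 14 weeks library. The log2 fold change was 3.92 (SE 0.85; adjusted p = 0.0618, edgeR), which did not pass. It passed without 14 weeks replicate 1, 2 or 5 (adjusted p = 0.0378, 0.0289 and 0.0388) and in DESeq2 (adjusted p = 4.29e-05). Over all alternatives that left out 1 library, its adjusted p ran from 0.0289 to 0.159 (edgeR).

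The other 3 genes with a gap of at least 1 log2 unit shared the libraries in which they were high, a pattern picked out after the values were seen. In all 4, 14 weeks replicate 5 was the highest library of its age and 7 weeks replicate 4 the highest of 7 weeks. The gene with the third widest gap, 14453 bases long, had 6.19 to 30.9 CPM at 5 weeks and 82.6, 74.6, 195, 138 and 520 CPM at 14 weeks. It reached 523 CPM in 7 weeks replicate 4, where the other 7 weeks libraries had 7.68 to 38.4 CPM. Its log2 fold change was 3.84 (SE 1.01; adjusted p = 0.0618, edgeR). Of the 275 higher genes, 36 had their highest 14 weeks level in replicate 5 and their highest 7 weeks level in replicate 4, against 895 of the 19192 genes tested.

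Nfu_g_1_002418 had the highest mean level of the higher genes and was rank 581 among all genes tested. Its counts came to 44.9, 48.3, 37.6, 147 and 123 CPM in the 5 weeks replicates. At 14 weeks they came to 425, 229, 159, 175 and 330 CPM. The gap was narrow, because 5 weeks replicates 4 and 5 stood well above the other 3 and 14 weeks replicates 3 and 4 were the lowest of their age. At 10 weeks the mean of 425 ± 184 CPM (SD, n = 5) lay above that of 14 weeks, 264 ± 112 CPM (SD, n = 5). At 7 weeks the range was 28.0 to 221 CPM. The log2 fold change was 1.72 (SE 0.57; adjusted p = 0.0809, edgeR), and with 5 weeks replicates 4 and 5 both left out it was 2.59 (adjusted p = 0.0303, edgeR).

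**Figure D2:**
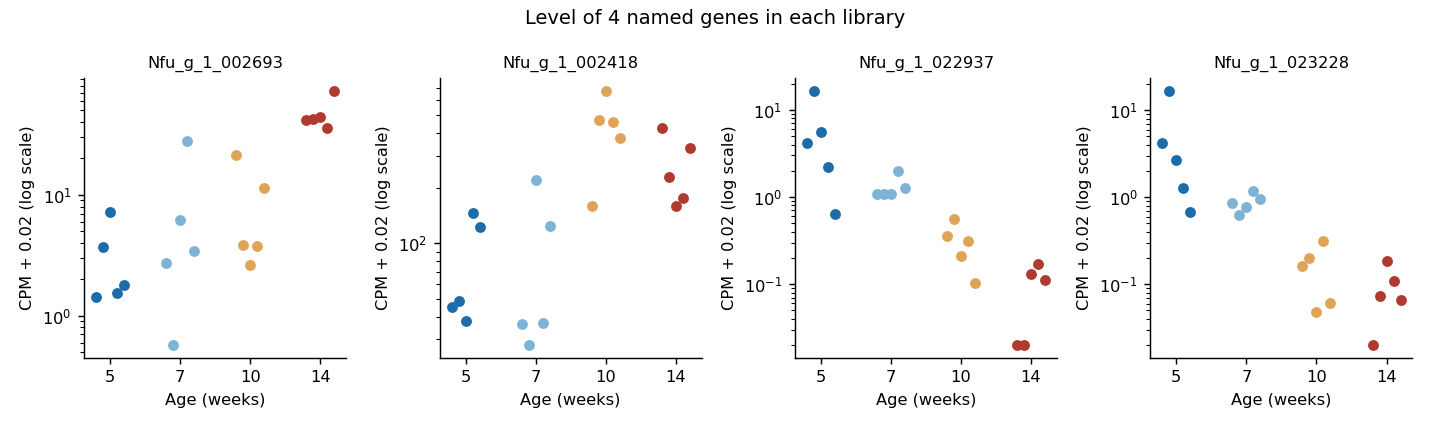
Level of 4 genes in each library (points, CPM + 0.02 on a log axis) by age in weeks. Nfu_g_1_002693 lies at 35.7 CPM or more in every 14 weeks library and at 7.13 CPM or less at 5 weeks, Nfu_g_1_002418 peaks at 10 weeks, and Nfu_g_1_022937 and Nfu_g_1_023228 decline from 5 weeks on.

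The most abundant lower gene had 979, 3180, 1110, 1800 and 786 CPM in the 5 weeks replicates and 737, 650, 354, 112 and 443 CPM at 14 weeks. It was rank 124 among all genes tested. Its lowest 5 weeks library was barely above its highest 14 weeks library, and the 7 and 10 weeks libraries, at 369 to 954 and 217 to 1500 CPM, overlapped both. The log2 fold change was -1.77 (SE 0.53; adjusted p = 0.0634, edgeR). The next in abundance, a gene of 885 bases, was highest and lowest in the same libraries. It reached 1500 CPM in replicate 2 of 5 weeks and 21.9 CPM in replicate 4 of 14 weeks, with means of 646 ± 500 and 124 ± 71.0 CPM for these ages (SD, n = 5 each).

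Some lower genes were steadier within an age. The fifth most abundant, of 6014 bases, stood at 197, 217, 266, 265 and 174 CPM at 5 weeks and at 152, 157, 105, 91.0 and 95.4 CPM at 14 weeks. Its 7 weeks mean of 218 ± 35.1 CPM was near that of 5 weeks, 224 ± 40.9 CPM, and its 10 weeks mean of 130 ± 30.8 CPM was near that of 14 weeks, 120 ± 31.8 CPM (SD, n = 5 each). The log2 fold change was -0.90 (SE 0.20; adjusted p = 0.0618, edgeR). The gene with the fourth widest gap of the lower genes went from 139, 120, 97.1, 70.7 and 87.9 CPM at 5 weeks to a range of 17.6 to 48.1 CPM at 14 weeks. Between these ages it averaged 46.8 ± 24.3 CPM (7 weeks) and 27.8 ± 12.0 CPM (10 weeks; SD, n = 5 each).

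Some of the abundant higher genes showed small shifts with little spread. The fifth most abundant had 99.1, 94.1, 86.7, 107 and 106 CPM at 5 weeks and 125, 111, 144, 120 and 115 CPM at 14 weeks. On the log2 scale the shift was 0.32 (SE 0.12; adjusted p = 0.106, edgeR). The fourth had 65.3 to 111 CPM at 5 weeks and 116 to 184 CPM at 14 weeks. That gene lay at 134 to 216 CPM at 10 weeks, above every 5 weeks library, and at 86.2 ± 21.9 CPM at 7 weeks (SD, n = 5). Its log2 fold change was 0.87 (SE 0.19; adjusted p = 0.0618, edgeR).

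The largest fold changes among the higher genes came mainly from 14 weeks replicates 3 and 4. In 169 of the 275 the highest 14 weeks library was replicate 3 or 4, with 155 for replicate 3 and 14 for replicate 4. For all genes tested these counts were 8699, 6076 and 2623 of 19192. Among the 58 genes with a fitted fold of 8 or more, replicate 3 or 4 was the highest in 48, each time replicate 3. In 41 of the 58 the highest 14 weeks library was over 10 times the lowest, against 1603 of all 19192. Choosing genes by a large fold of the means alone favours such a spread. The median of their mean levels was 0.299 CPM at 5 weeks and 13.5 CPM at 14 weeks. Without replicates 3 and 4 the 14 weeks median was 0.825 CPM. The 88 genes under 2-fold had medians of 11.3 CPM at 5 weeks, 19.1 CPM at 14 weeks and 20.3 CPM at 14 weeks without these libraries. The 129 in between had medians of 1.9, 6.1 and 3.94 CPM. How far these libraries set the number of higher genes was not tested beyond leaving them out. For the lower genes the 14 weeks median was 6.96 CPM with and 7.21 CPM without replicates 3 and 4.

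At 5 weeks, replicate 4 or 5 was the highest library in 176 of the 275 higher genes and the lowest in 111 of the 151 lower genes. Over all genes tested these counts were 9728 and 8992 of 19192. Within this pair, most of the departure came from replicate 5. It was the highest in 30.5% of the higher genes and the lowest in 43.7% of the lower genes, against 21.8% and 19.3% of all genes. For replicate 4 these shares were 33.5% and 29.8%, near the 28.9% and 27.6% of all genes. The other libraries also departed in the higher genes. Replicate 3 was the highest in 21.1%, against 10.1% of all genes. Replicates 1 and 2 were the highest in 6.55% and 8.36%, against 15.6% and 23.6%. At 5 weeks, replicate 2 was the highest library in 59 of the 151 lower genes (39.1%), and replicate 5 in 3 (1.99%), against 23.6% and 21.8% of all genes tested.

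The ages between differed in where they placed the genes. In the lower genes the median level at 7 weeks was near that of 5 weeks, and at 10 weeks near that of 14 weeks. On log2(CPM + 0.5) of the age means, the 7 weeks level had covered a median of 15.5% of the difference (quartiles -16.3% and 55.4%) and the 10 weeks level 97.3% (73.2% and 117%). The 10 weeks mean was nearer to 14 than to 5 weeks in 135 of 151 lower genes (89.4%), against 53.4% of all genes tested. It was at or beyond the 14 weeks mean in 67 (44.4%), near the 37.8% of all genes. The largest of the 3 steps fell between 7 and 10 weeks in 97, between 5 and 7 weeks in 42 and between 10 and 14 weeks in 12. Among all genes tested these were 8794, 4028 and 6370 of 19192.

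In the higher genes the 7 weeks mean had covered a median of 38.1% of the difference (quartiles 12.2% and 56.4%) and the 10 weeks mean 56.6% (37.2% and 101%). The 7 weeks libraries were not alike, with a median over these genes of 2.75, 2.31, 7.43, 2.72 and 5.86 CPM in replicates 1 to 5. The 5 weeks libraries ran from 2.18 to 3.03 CPM. The 7 weeks mean lay between those of 5 and 14 weeks in 220 of 275 genes, and the 10 weeks mean in 198, against 5931 and 6645 of all 19192. Over all genes tested the medians covered were 7.54% at 7 weeks and 59.7% at 10 weeks, so the 10 weeks median of the higher genes was close to that of genes in general. The largest step was spread over all 3 intervals, with 74 genes from 5 to 7 weeks, 97 from 7 to 10 weeks and 104 from 10 to 14 weeks. Means increased at every step in 88 of the 275, and decreased at every step in 46 of the 151 lower genes, where 1420 of all 19192 genes moved one way throughout. The genes were chosen for a difference between the end ages, which alone makes such an order more frequent than among all genes. Means are pulled by high libraries, and with medians of the 5 libraries, a choice made after the data were seen, the higher genes had covered 27.1% at 7 weeks and 83.1% at 10 weeks. The lower genes had covered 16.6% and 102%.

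**Figure D3:**
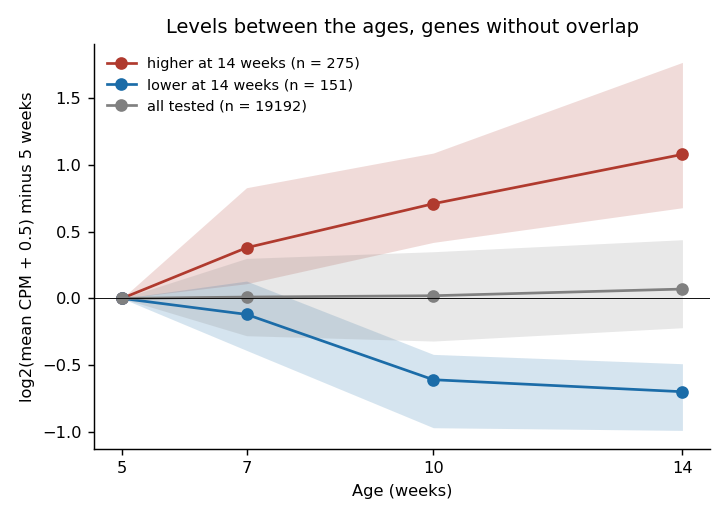
Level at each age relative to 5 weeks, as log2(mean CPM + 0.5), for the 275 higher genes (red), the 151 lower genes (blue) and all 19192 tested (grey); lines are medians over genes and bands run from the lower to the upper quartile. The red line passes 0.38 at 7 weeks and 0.71 at 10 weeks on its way to 1.08, while the blue line is at -0.12 at 7 weeks and -0.61 at 10 weeks, near its end at -0.70. Without 14 weeks replicates 3 and 4, which is not drawn, the medians at 14 weeks were 0.66 (higher genes) and -0.65 (lower genes).

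By fold class, the 58 higher genes at 8-fold or more had a median of 3.59 CPM at 7 weeks and 2.45 CPM at 10 weeks. In 1 of them the 10 weeks mean reached that of 14 weeks. Among the 88 under 2-fold the 10 weeks median was 15.6 CPM, and 35 had a 10 weeks mean at or above that of 14 weeks. The 10 weeks mean was at or beyond the 14 weeks mean in 7260 of all 19192 genes tested (37.8%). The classes were cut by fold, which rests on the 14 weeks level, so the sorting itself favours fewer such genes at 8-fold or more. No conclusion is drawn from the contrast between the classes.

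Counts were less concentrated on a few genes at 14 than at 5 weeks, though not beyond the spread between libraries after adjustment. The 10 most abundant genes of each library held 22.7%, 26.4%, 24.2%, 26.3% and 20.1% of the counts in the 5 weeks replicates. At 14 weeks they held 21.6% in replicate 2, 12.8% in replicate 3, 9.95% in replicate 4 and 15.6% in replicate 5, and replicate 1 lay just under the lowest library of 5 weeks. The groups overlapped only through 14 weeks replicate 2, which lay above 5 weeks replicate 5. The means were 23.9 ± 2.64% and 15.9 ± 4.77% (SD, n = 5 each), a difference of -8.03 percentage points (p = 0.0159, two-sided exact permutation test; 0.0635 after adjustment over 4 measures). At 7 and 10 weeks the means were 22.1 ± 3.7% and 19.0 ± 4.98% (SD, n = 5 each). Without 14 weeks replicates 3 and 4 the difference was -5.01 percentage points (exact p = 0.0536, adjusted 0.214). Without 5 weeks replicates 4 and 5 it was -8.53 points (exact p = 0.0357, adjusted 0.143). With a pair of libraries left out there are fewer ways to divide the rest, so the smallest p the test allows is larger. Not passing there is therefore not read as a result about these libraries. Without 14 weeks replicate 2 the difference was -9.46 points, and the adjusted p of 0.0317 (exact) passed.

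Wider measures overlapped more. The share of the 100 most abundant genes was 45.5 ± 4.0% at 5 weeks and 36.6 ± 8.54% at 14 weeks (SD, n = 5 each; exact p = 0.0714, adjusted 0.143). That difference of -8.93 percentage points was -3.07 without 14 weeks replicates 3 and 4 (exact p = 0.321). The number of genes that together held 50% of the counts was 201, 192, 123, 89 and 183 in the 5 weeks replicates and 166, 134, 673, 704 and 248 at 14 weeks. Replicates 3 and 4 stood far above every other library of these ages, and the difference of 227 genes had an exact p of 0.127 (adjusted 0.169). It was 25.1 genes without both of them and 148 without replicate 4 alone. Without 14 weeks replicate 2, the difference in the share of 100 genes was -11.25 points and that in the genes for 50% was 290 (adjusted exact p = 0.0423 for both). Genes with at least 1 CPM numbered 15767 to 16495 at 5 weeks and 15673 to 17909 at 14 weeks, a difference of 709 genes (exact p = 0.23, adjusted 0.23). It was 423 without 14 weeks replicate 3, 457 without replicate 4 and -8.13 without both. Thus the wider measures rested on these libraries. With 5 libraries against 5 the smallest p the test allows is 0.00794, and it is larger with a pair of libraries left out.

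**Figure D4:**
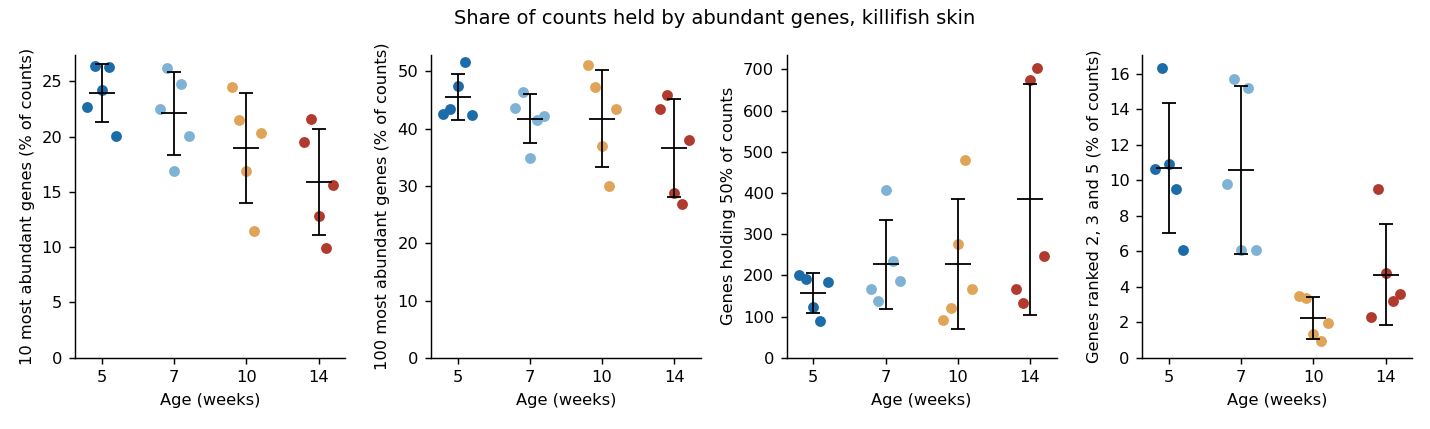
Values per library (points) at the 4 ages with mean and SD (bars, n = 5) for the share of counts in the 10 and the 100 most abundant genes of each library, the number of genes that hold 50% of counts, and the summed share of the genes ranked 2, 3 and 5. The share of the 10 most abundant genes spans 20.1% to 26.4% at 5 weeks and 9.95% to 21.6% at 14 weeks.

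The difference was largest at the very top of the list. With genes ranked by their mean share over the 20 libraries, ranks 1 to 10 held 23.4 ± 2.42% of the counts at 5 weeks and 15.4 ± 4.9% at 14 weeks (SD, n = 5 each). Ranks 11 to 100 held 21.4 ± 3.06% and 19.9 ± 4.74%, and ranks 101 to 1000 held 24.5 ± 0.7% and 26.1 ± 1.85%. Genes beyond rank 5000 held 11.2 ± 1.63% at 5 weeks and 15.2 ± 5.72% at 14 weeks, a range of 9.93% to 21.4% at 14 weeks that covers the whole 5 weeks range except 8.72% at its lower end. Of the first 100 genes, 81 had a lower mean CPM at 14 weeks, against 8399 of 19192 tested. None was without overlap and none passed the test, against 2.22% and 0.0104% of all genes tested. At such shares few or none would be found among 100 genes, so nothing is read from this. The median log2 fold change was -0.17 over these 100 and 0.07 over all genes.

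The genes at ranks 2, 3 and 5 accounted for most of the difference, a choice made after their values were seen. In sum they held 10.6%, 16.3%, 10.9%, 9.53% and 6.08% of the counts in the 5 weeks replicates and 2.32%, 9.5%, 4.77%, 3.18% and 3.61% at 14 weeks. At 14 weeks only replicate 2 reached the 5 weeks range. The mean was 10.7 ± 3.69% at 5 weeks, 10.6 ± 4.74% at 7 weeks, 2.23 ± 1.17% at 10 weeks and 4.67 ± 2.84% at 14 weeks (SD, n = 5 each). The lowest 7 weeks library, at 6.04%, was above the highest of 10 weeks, at 3.49%. The other 7 genes of the first 10 held 12.7 ± 3.13% at 5 weeks and 10.7 ± 4.04% at 14 weeks (SD, n = 5 each). Across all 20 libraries the sum of ranks 2, 3 and 5 ranged from 0.934% to 16.3%. The ratio of the gene of rank 2 to that of rank 3 ranged from 0.615 to 1.2, and that of rank 5 to rank 3 from 0.373 to 0.836. For ranks 2, 3 and 5 the log2 fold changes were -1.27 (SE 0.56), -1.32 (SE 0.52) and -1.28 (SE 0.57). Their adjusted p was 0.172, 0.132 and 0.179 (edgeR), so none passed.

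These 3 genes are long, at 6785, 9459 and 9137 bases, and long genes collect more reads per transcript. Divided by length, they ranked 12, 25 and 50 among all genes, and the share of the 10 leading genes was 19.3 ± 4.59% at 5 weeks and 16.2 ± 5.33% at 14 weeks (SD, n = 5 each). That difference of -3.04 percentage points had an exact p of 0.373. The size of the difference thus depended on whether reads were scaled by length. The first gene by length-scaled level was a short one of 342 bases, with 4.78% of the total at 5 weeks and 3.87% at 14 weeks.

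The gene with the most counts in the series was rank 1 in 2 of 5 libraries at 5 weeks and in 3 of 5 at 14 weeks. It held 2.98%, 1.41%, 4.03%, 5.91% and 3.95% of the counts in the 5 weeks replicates and 4.7%, 4.11%, 2.53%, 1.12% and 2.74% at 14 weeks, and the groups overlapped throughout. At 5 weeks the leading place in the other 3 libraries went to the gene of rank 2, which led in none at 14 weeks. The sixth gene was about level, with 1.3 ± 0.187% of counts at 5 weeks and 1.54 ± 0.374% at 14 weeks (SD, n = 5 each; log2 fold change 0.13, SE 0.26).

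**Figure D5:**
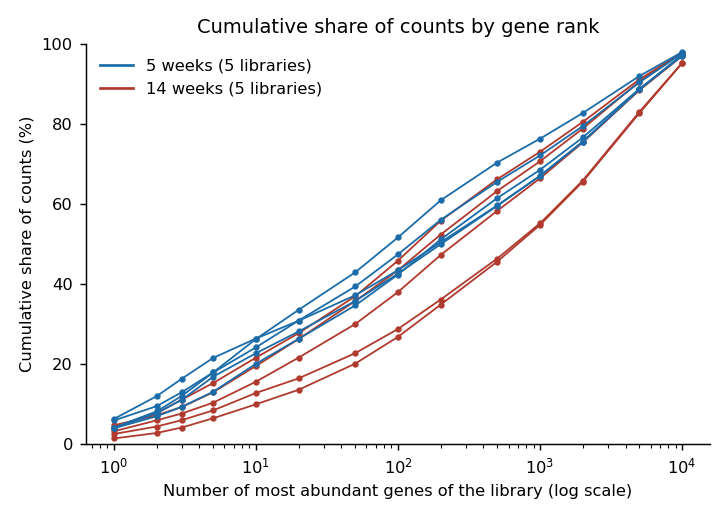
Cumulative share of counts (percent) against the number of most abundant genes of each library (log axis) for the 5 libraries of 5 weeks (blue) and the 5 of 14 weeks (red). The lowest red curves are replicates 3 and 4 of 14 weeks, whose 100 leading genes held 28.8% and 26.8% of the counts, against 42.4% or more in every 5 weeks library.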

How the data were processed

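Libraries were grouped by the age in the labels and numbered in accession order. They were prepared from total RNA with a TruSeq kit, per the labels' protocols. The authors deposited raw counts per gene ID. The submitters' processing notes name featureCounts 1.4.6-p4, the aligner STAR 2.4.1d and CASAVA 1.8.2. No source used here gives the genome build, annotation or strand setting, so overlapping, antisense and closely similar genes may share reads. The authors also deposited RPKM values. Their depths repeat down the rows in a series of 25 and fit the library of the column in only 4.7% of values (within 0.1%), so RPKM served only to recover gene lengths. Of the 26739 IDs, 0 matched the RefSeq gene table (assembly NfurGRZ-RIMD1).

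Counts were filtered with filterByExpr and tested with edgeR 4.0.16 in R 4.3.3 (TMM, glmQLFit, 4 age means over 20 libraries, Benjamini-Hochberg adjustment at 0.05). DESeq2 1.42.0 and limma 3.58.1 were alternatives. CPM are TMM-scaled counts; shares and gene numbers use library totals. Single values were compared by exact permutation. Intervals were not computed. Totals of 21581757 counts or more leave counting error small for the shares of abundant genes. It is not small for the called genes at 14 weeks, with 0 to 6 counts per library. All 40 pairs of libraries of the same age differed beyond counting noise (lowest chi-square divided by its degrees of freedom 57.5), so none was counted as a repeat of another. Set against counting noise alone, the pairs cannot tell separate fish from separately prepared libraries of the same fish. The steps were tested on simulated data.

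Named genes were, in each direction, those called, filled to 2 with the genes of the largest gap and of the highest mean among those without overlap and with at least 1 CPM at the higher age. Other genes are given by rank. Members and lists were chosen with earlier results of these data known.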

Additional observations from a re-analysis of the deposited data

Results flagged for a closer look

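Within groups of 5 libraries, a sample was marked when its gap to the nearest other exceeded 0.71 of the range of its group. Of 24 groups examined, 4 were marked, where chance marks about 1 in 20 if values are normally distributed. The CPM were not put on a log scale, and the genes were chosen from the same values. That rate therefore may not hold here, and no excess of marked groups is read from it. Nfu_g_1_002693 stood at 28.0 CPM in 7 weeks replicate 4, with the next library at 6.15 CPM, and at 71.9 CPM in 14 weeks replicate 5, with the next at 43.7 CPM. Nfu_g_1_022937 stood at 1.99 CPM in 7 weeks replicate 4, with the next at 1.26 CPM. Nfu_g_1_023228 stood at 16.6 CPM in 5 weeks replicate 2, with the next at 4.24 CPM.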

How the results depend on the processing

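Of 2 genes called in edgeR, the number was 0 without 14 weeks replicates 3 and 4 together (3195 with an unadjusted p under 0.05), 0 in limma voom (3646), 0 with the 10 libraries of 5 and 14 weeks alone (2927), 1478 without 5 weeks replicates 4 and 5 together and 2246 in DESeq2. Of the 1478, 676 were higher and 802 lower, and of the 2246, 1703 and 543, where both calls here were lower. Leaving out 1 of 20 libraries gave 0 to 2141. The 426 genes without overlap (275 higher, 151 lower) became 1444 (732, 712) without the first pair of libraries and 3238 (1572, 1666) without the second, where the excess of higher genes turned, and 429 to 1205 without 1 library. The difference in the share of the 10 most abundant genes ran from -9.46 to -6.54 points on leaving out 1 of 10 libraries, that of the 100 most abundant from -11.25 to -6.49, the genes for 50% of counts from 147.7 to 290.1 and the genes with 1 CPM from 423 to 982. The last was -8.13, a change of direction, without 14 weeks replicates 3 and 4. No fold change of a named gene changed sign in the alternatives run. Causes were not tested, beyond the fewer libraries compared. No paired analysis was possible because the labels give no replicate numbers and the numbers used here are accession order. Both called genes lost their call in limma voom (adjusted p = 0.0887 each), with the 10 libraries alone (0.209 each) and without 14 weeks replicates 3 and 4 together (0.107 and 0.123). Nfu_g_1_023228 also lost it with library totals (0.0605, edgeR). Depth limits the called genes at 14 weeks, where they had 0 to 6 counts per library.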
